A study of Mus musculus with 48 samples.

Results

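The genes described here encode the ligands, the processing enzyme and the receptors through which angiotensin II, endothelin, noradrenaline, vasopressin, prostacyclin and natriuretic peptides act on the aortic wall. They are the 10 genes Edn1, Ednra, Ednrb, Agt, Ace, Agtr1a, Adra1d, Avpr1a, Ptgir and Npr3, taken by symbol from a table of 18782 genes, and all 10 passed the filter on low counts that left 14431 genes for testing. The libraries came from thoracic aortas of 48 wild-type C57BL/6J mice, 1 per mouse, which started at 3 weeks of age. Males and females were studied in parallel: MaCon (10 mice) and FeCon (10 mice) drank normal water, while MaNonAD (4 mice), MaAAD (7 mice), FeNonAD (8 mice) and FeAAD (9 mice) drank 0.4% β-aminopropionitrile (BAPN) for 28 days. BAPN blocks lysyl oxidase and with it the cross-linking of elastin and collagen fibres. AAD mice had a dissection or aneurysm at the endpoint and NonAD mice had none, so the split was made by outcome and not by assignment, and mice that had died of rupture are not among the 48. The sampled aorta comprised the ascending part, the arch and the proximal descending part, and RNA came from the lesioned segments where there was a lesion. The mice were housed in shared cages that the labels do not give.

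Angiotensinogen, the product of Agt, is cut by renin and then by the angiotensin-converting enzyme Ace to angiotensin II, which contracts arterial muscle through the receptor Agtr1a. Endothelin-1, encoded by Edn1 and released mainly by endothelium, contracts smooth muscle through Ednra, while Ednrb on endothelium promotes relaxation and clears the peptide. Noradrenaline acts on arterial muscle through α1-adrenoceptors such as Adra1d, vasopressin through Avpr1a, and prostacyclin relaxes the wall through Ptgir. Npr3 binds natriuretic peptides and removes them from the circulation.

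Values are CPM, counts scaled to library size, after TMM scaling, a correction for differences in library composition, and library totals lay between 13548003 and 17281262 counts. At the median total of 15681333 counts, 1 read was worth 0.0638 CPM. The 10 contractile smooth muscle markers were present in every group, with summed levels from 13674 to 70139 CPM. Heart muscle, fat, endothelial, fibroblast and macrophage markers were also present in every group, so each library holds several cell types. In such bulk samples, fewer cells of a type and less RNA per cell cannot be told apart. Library FeAAD5 stood apart from the other FeAAD libraries, with the highest macrophage marker sum of all 48 libraries (6240 CPM) and the lowest smooth muscle sum of its group (15615 CPM). MaAAD7 had the highest macrophage sum of the males (4227 CPM), and FeAAD9 had the lowest endothelial sum of all libraries (382 CPM).

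To compare genes with each other, CPM was divided by the length of the longest annotated transcript. On this scale of CPM per kilobase, Ace was by far the most abundant of the 10, with a mean over the 48 libraries of 188 ± 49.9 (SD). Adra1d followed at 33 ± 14.8, Edn1 at 9.29 ± 3.03 and Ednra at 5.42 ± 1.7 CPM per kilobase. Npr3 (3.36 ± 1.57), Ednrb (3.17 ± 2.56), Ptgir (2.37 ± 0.889) and Agtr1a (1.75 ± 0.561) came next, and among these genes neighbours in the order differed by less than the larger SD. Avpr1a (0.382 ± 0.318) and Agt (0.226 ± 0.227) were lowest and likewise lay within 1 SD of each other. The order is that of means over all groups and changed between them. In MaCon Ednrb (1.65 ± 0.842) lay below Agtr1a (1.84 ± 0.468), and in MaAAD Ednrb (6.11 ± 3.18) lay above Npr3 (3.64 ± 2.1), each by less than the larger SD. Agt was counted only 1 to 37 times per library and Avpr1a 3 to 80 times, so both rest on few reads.

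Against water controls, aortas with lesions held higher RNA for both endothelin receptors and lower RNA for the α1D-adrenoceptor in both sexes. AAD and Con mice differ in BAPN as well as in the lesion. In MaAAD against MaCon, 3 genes of the 10 were higher (Ednra, Ednrb, Ptgir) and 1 was lower (Adra1d) at an adjusted p under 0.05, where 35% of all tested genes were called, 18.9% higher and 16.1% lower. Of these, Ednrb, Ptgir and Adra1d were DEGs, which also need a log2 fold change of 1 or more in size and made up 11.4% of all tested genes. The same 3 were without overlap between MaAAD and MaCon libraries, as were 8.91% of all genes. In FeAAD against FeCon, Ednra, Ednrb and Npr3 were higher and Adra1d was lower, against 44.4% of all genes called, 23.8% higher and 20.6% lower. Ednrb and Adra1d were DEGs there, beside 12.7% of all genes, and no member was without overlap, beside 4.89% of all genes. The share of the 10 genes called in each sex (4 of 10) was thus close to that of all genes. The median log2 fold change of the 10 was 0.13 in males and 0.24 in females, beside medians of -0.03 and 0.00 over all genes. Both endothelin receptors and Adra1d passed in both sexes, Ptgir in males and Npr3 in females.

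BAPN without a lesion gave fewer calls. In FeNonAD against FeCon, Edn1 and Adra1d were lower and no member was higher, with 14.5% of all genes called, and no member was without overlap, beside 0.741% of all genes. In MaNonAD against MaCon, edgeR's quasi-likelihood test called none of the 10 (lowest adjusted p = 0.165) and DESeq2 called 0, whereas 2 members, Ednrb and Ptgir, had an unadjusted p under 0.05. Only 0.624% of all genes were called in that comparison, which has 4 mice in 1 arm. Ptgir was the only member without overlap between MaNonAD and MaCon, as were 1.26% of all genes. Of 6 tested B cell markers 5 were higher in MaNonAD than in MaCon (median 2.48), at summed levels of 8.28 to 22.9 CPM against 0.856 to 5.95 CPM, and their part in the values of the 10 genes was not tested. In AAD against Con 4 of these 6 were higher in males (median 1.43) and 6 of 6 in females (median 2.50). Between lesion and no lesion under BAPN, FeAAD exceeded FeNonAD for Ednrb and Npr3 and lay below it for Adra1d, with 18.2% of all genes called. In MaAAD against MaNonAD edgeR called 0 members (lowest adjusted p = 0.0886) and DESeq2 also 0, with 3 members at an unadjusted p under 0.05 and 0.409% of all genes called. AAD and NonAD were each compared with the same Con libraries, so these comparisons are not independent of each other.

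**Figure D1:**
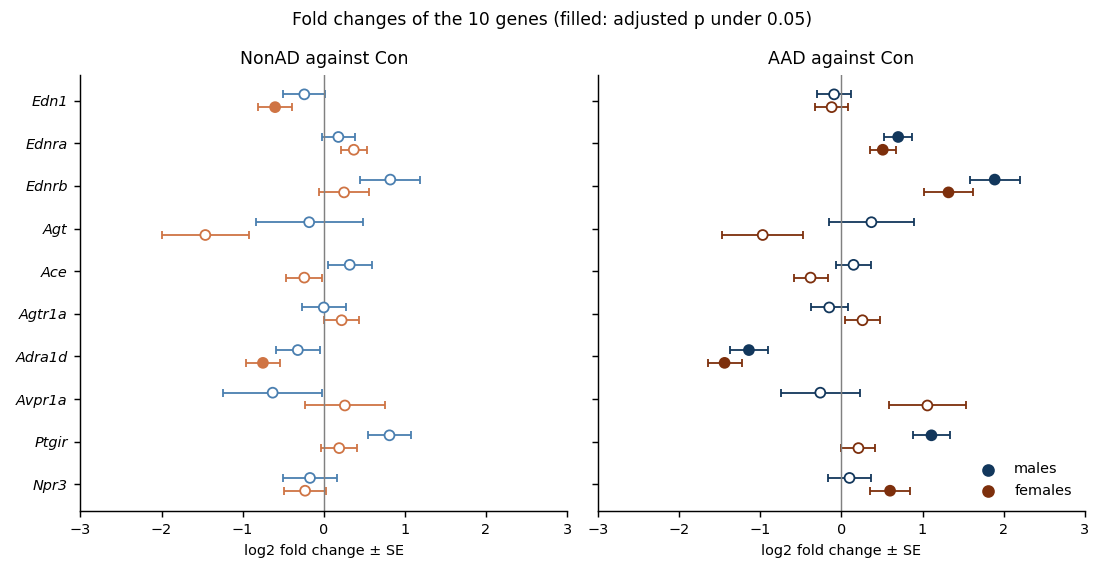
Log2 fold changes of the 10 genes (x axis, points with approximate standard errors) for NonAD against Con (left) and AAD against Con (right) in males (blue) and females (brown), with filled points at an adjusted p under 0.05. In the right panel Ednra and Ednrb lie to the right of 0 and Adra1d to the left in both sexes, while Ptgir is filled in males and Npr3 in females.

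Edn1, the gene of the ligand endothelin-1, lies on chromosome 13 (chr13:42301476-42307990, plus strand of GRCm38, GENCODE M21), Ednra on chromosome 8 (chr8:77663031-77724464, minus strand) and Ednrb on chromosome 14 (chr14:103814625-103844402, minus strand). The count table gives no coordinates, so all positions are those of this annotation, matched by symbol. An antisense gene overlaps Edn1 and a processed transcript on the opposite strand overlaps Ednra, and whether the counting used strand is not given in the sources used here. The 250 bases before the RefSeq start site (GRCm38.p6) of these genes are shown because both receptors were called in AAD and their ligand was not, with motifs found by the search in capitals. The last 12 bases shown for Ednra lie in an annotated exon of a longer transcript, and the Ednrb bases lie in an intron of the annotated gene.

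Edn1, chr13:42301226-42301475, plus strand: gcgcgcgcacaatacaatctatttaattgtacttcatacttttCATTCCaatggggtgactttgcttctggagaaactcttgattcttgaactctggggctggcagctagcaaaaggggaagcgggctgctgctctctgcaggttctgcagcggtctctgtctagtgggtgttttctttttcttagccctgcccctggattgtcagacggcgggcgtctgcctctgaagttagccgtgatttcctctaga

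Ednra, chr8:77724453-77724702, minus strand: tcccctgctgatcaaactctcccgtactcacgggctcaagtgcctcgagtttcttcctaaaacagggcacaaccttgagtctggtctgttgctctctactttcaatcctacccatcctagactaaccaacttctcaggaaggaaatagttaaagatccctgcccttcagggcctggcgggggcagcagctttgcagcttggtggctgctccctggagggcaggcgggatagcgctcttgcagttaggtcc

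Ednrb, chr14:103843702-103843951, minus strand: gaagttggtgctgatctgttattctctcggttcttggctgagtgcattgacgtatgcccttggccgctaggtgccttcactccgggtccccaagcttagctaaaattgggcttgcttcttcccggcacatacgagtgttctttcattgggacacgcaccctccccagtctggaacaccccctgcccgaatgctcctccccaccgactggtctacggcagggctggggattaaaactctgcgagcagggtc

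Windows of 300 bases, from 250 before to 50 after the start, were searched on both strands for the CArG box of serum response factor, the AP-1 motif TGANTCA, the TEAD motif CATTCC and the TATA motif TATAAA. The motifs stand in 1.63%, 7.81%, 14.7% and 13.6% of 32817 promoter windows of the genome. CATTCC stood in the Edn1 window, 207 bases before the start, and the windows of Ednra, Ednrb, Ptgir and Npr3 held none of the 4 motifs. TATAAA stood in the windows of Agt and Avpr1a and, on the minus strand, in the Ace window that starts at chr11:105967698. Another Ace window, which starts at chr11:105974939, held none of the 4 motifs. RefSeq windows were found for 8 of the 10 genes. A match is a string of letters and no match says only that these letters are not in the window.

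Ednrb, the endothelin receptor known from endothelium, was the most raised of the 10 genes in AAD. In MaCon its level ran from 3.56 to 14.5 CPM with a median of 5.84, and in MaAAD from 15.4 to 51.6 CPM with a median of 18.3. Every MaAAD library thus lay above every MaCon library. The 4 MaNonAD libraries, at 9.28, 11.6, 15.3 and 11.8 CPM, lay between the medians of the other male groups and below all MaAAD libraries, a lack of overlap found for 4.04% of all genes. In MaAAD against MaCon Ednrb rose 3.71-fold, or by 1.89 ± 0.31 (SE) on the log2 scale, with adjusted p = 5.24e-06 in edgeR's quasi-likelihood test. Without MaAAD7, its highest library, the value was 1.61 with adjusted p = 8.03e-05. In FeCon the level ran from 3.57 to 12.6 CPM (median 7.87), in FeNonAD from 5.27 to 13.2 CPM (median 9.54) and in FeAAD from 8.16 to 54 CPM (median 14.7). These female groups overlapped, as the lowest FeAAD libraries sat among the FeCon libraries. Ednrb rose by 1.32 ± 0.30 on the log2 scale (adjusted p = 0.000313), or 2.5-fold, in FeAAD against FeCon. Without FeAAD5, the library at 54 CPM, the value was 0.97 with adjusted p = 0.00381, so that it no longer reached the fold of a DEG. Against FeNonAD the FeAAD libraries were higher by 1.07 ± 0.32 (adjusted p = 0.0135), and this call was lost without FeAAD5 (0.72, adjusted p = 0.102) and when the fit held only the compared groups (1.08, adjusted p = 0.0562).

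Ednra, the receptor through which endothelin-1 contracts smooth muscle, moved less. Its level was tight in the controls, from 12.4 to 19 CPM (median 15.5) in MaCon and from 13.2 to 19.8 CPM (median 16.1) in FeCon. In MaAAD it ran from 15.9 to 34.4 CPM (median 21.4) and in FeAAD from 10.2 to 38 CPM (median 23.9), and it overlapped the controls in both sexes. MaAAD3, MaAAD4 and MaAAD6 stood between 32.7 and 34.4 CPM while the other MaAAD libraries were at 21.4 CPM or lower. Ednra rose by 0.70 ± 0.17 on the log2 scale in MaAAD (adjusted p = 0.000735) and by 0.51 ± 0.16 in FeAAD (adjusted p = 0.0069) against Con. In MaNonAD the libraries were at 27.5, 12.7, 14.1 and 16.2 CPM, and in FeNonAD they ran from 16.9 to 25.4 CPM (median 20.8). The FeNonAD difference from FeCon, 0.37 ± 0.16, had an adjusted p of 0.111 in the fit of all libraries and of 0.0106 when only FeNonAD and FeCon were fitted (log2 fold change 0.38). Under BAPN, Ednra was not called between lesion and no lesion in edgeR. FeAAD differed from FeNonAD by 0.14 ± 0.16 (adjusted p = 0.595) and MaAAD from MaNonAD by 0.53 ± 0.22 (adjusted p = 0.165). Without MaNonAD1, at 27.5 CPM, the male value was 0.82 with adjusted p = 0.0362.

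The ligand gene Edn1 was not called in AAD in either sex. It ran from 17.3 to 29.2 CPM (median 20.1) in MaCon and from 12.7 to 36 CPM (median 16.9) in MaAAD, a difference of -0.09 ± 0.21 on the log2 scale (adjusted p = 0.786). In FeCon it ran from 15.2 to 39.3 CPM (median 20.5), in FeNonAD from 9.6 to 22.5 CPM (median 14.9) and in FeAAD from 10.4 to 36.3 CPM (median 21.2). The groups overlapped throughout. Edn1 fell by 0.60 ± 0.21 on the log2 scale in FeNonAD against FeCon (adjusted p = 0.041), and without FeCon10, which was at 28.9 CPM, the value was -0.55 with adjusted p = 0.0734. In the same comparison 2 of 10 endothelial markers were lower and 0 higher (median log2 fold change -0.14), at summed levels of 604 to 1032 CPM (median 744) in FeNonAD and 659 to 1275 CPM (median 929) in FeCon. Of 8 proliferation markers 6 were higher (median 1.48), at 59.7 to 113 CPM in FeNonAD and 55.7 to 76.2 CPM in FeCon. Other lists held calls too. Among them, 2 of 6 mesothelial (median -0.73) and 2 of 6 skeletal muscle markers (median -1.01) were lower. Of 10 fibroblast markers 3 were higher and 1 lower (median -0.02). FeCon10 had the highest heart muscle (771 CPM) and skeletal muscle (72.1 CPM) sums of FeCon. The part of these markers in the Edn1 result was not tested. The 4 MaNonAD libraries, at 18, 12.2, 18.3 and 23.6 CPM, differed from MaCon by -0.24 ± 0.26 (adjusted p = 0.788). FeAAD differed from FeCon by -0.12 ± 0.20 (adjusted p = 0.644).

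Ednrb also made up a larger mean share of the endothelin receptor transcripts per kilobase in AAD, a measure added after the data had been seen. The mean share of Ednrb in the sum of Ednra and Ednrb was 26.8% ± 10.6 (SD, n = 10) in MaCon, 38.9% ± 11.4 (n = 4) in MaNonAD and 45.5% ± 14.9 (n = 7) in MaAAD. In females it was 29.4% ± 8.41 (n = 10) in FeCon, 28.1% ± 7.05 (n = 8) in FeNonAD and 40.3% ± 12.4 (n = 9) in FeAAD. The groups overlapped, and the highest shares were those of MaAAD7 (70.6%) and FeAAD5 (68.8%). Two-sided exact permutation tests gave an adjusted p of 0.0652 for MaAAD against MaCon, 0.0865 for FeAAD against FeCon and 0.0652 for FeAAD against FeNonAD over 9 pairwise comparisons, so none passed. Without FeCon10 the adjusted p of FeAAD against FeCon was 0.0447, with a difference of 12.2 percentage points. Without FeAAD5 the difference was 7.31 points (adjusted p = 0.155).

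**Figure D2:**
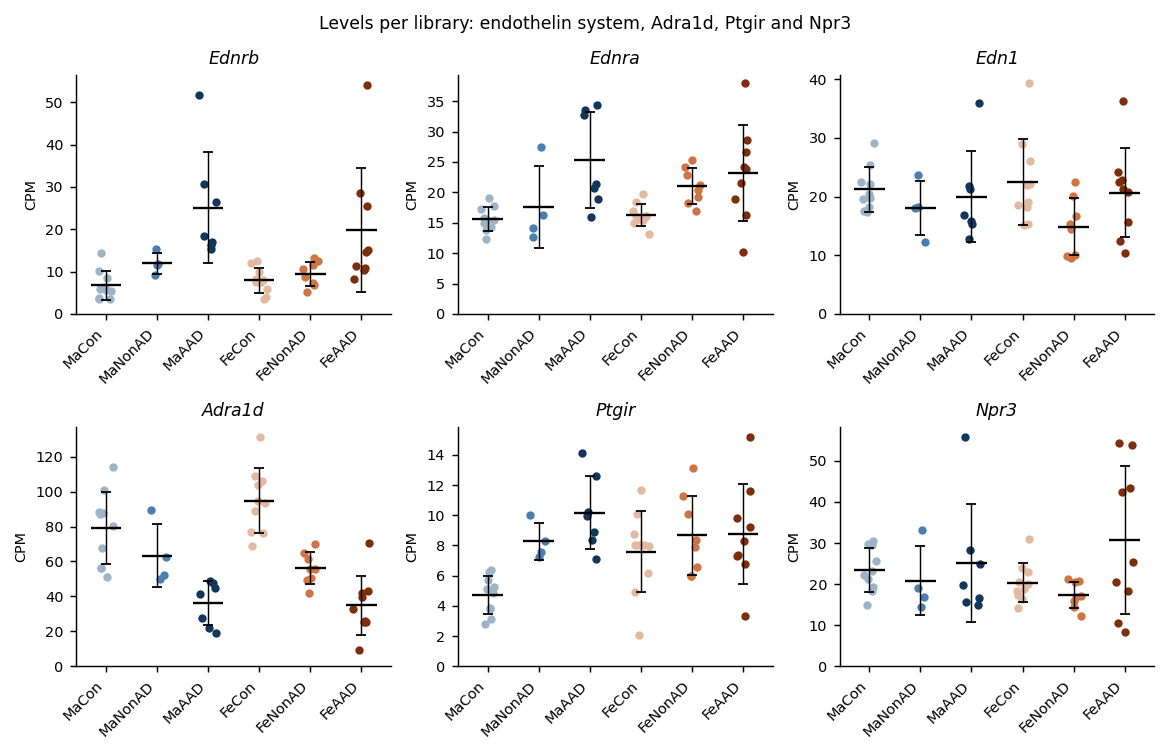
CPM (y axis) of Ednrb, Ednra, Edn1, Adra1d, Ptgir and Npr3 in each of the 48 libraries (points) by group, with the mean (line) and SD (bars). Ednrb is at 15.4 CPM or higher in all MaAAD libraries and at 14.5 CPM or lower in all MaCon libraries, and the Adra1d median is 83.9 CPM in MaCon and 41.5 in MaAAD, and 94.1 in FeCon and 32.8 in FeAAD.

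Adra1d, the α1D-adrenoceptor that contracts large arteries, was the only member called lower in AAD against Con in both sexes. The gene lies on chromosome 2 (chr2:131545850-131562283, minus strand of GRCm38), where an antisense gene overlaps it. In MaCon it ran from 51.3 to 114 CPM (median 83.9) and in MaAAD from 19.3 to 48.7 CPM (median 41.5), with no overlap between the groups. The 4 MaNonAD libraries, at 49.7, 52.1, 62.5 and 89.2 CPM, lay within or just under the MaCon range and above every MaAAD library. In FeCon the level ran from 68.8 to 131 CPM (median 94.1), in FeNonAD from 42 to 69.8 CPM (median 55.8) and in FeAAD from 9.41 to 70.4 CPM (median 32.8). Of the FeAAD libraries, FeAAD3 alone reached the FeCon range, and FeAAD5 was the lowest. Adra1d fell by 1.14 ± 0.23 on the log2 scale in MaAAD (adjusted p = 9.71e-05) and by 1.44 ± 0.21 in FeAAD (adjusted p = 3.99e-07) against Con. These are levels 2.2-fold and 2.72-fold lower. Without MaAAD7 the male value was -1.03 (adjusted p = 0.000604), and without FeAAD5 the female value was -1.32 (adjusted p = 3.86e-07).

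Adra1d was also lower in BAPN-treated females without a lesion, by -0.75 ± 0.21 (adjusted p = 0.014) in FeNonAD against FeCon. In MaNonAD against MaCon the difference was -0.32 ± 0.27 (adjusted p = 0.697), and the sex difference of this response was 0.43 ± 0.34 (adjusted p = 0.688). FeAAD was lower than FeNonAD by -0.69 ± 0.22 (adjusted p = 0.0228), a call that was lost without FeAAD5 (-0.56, adjusted p = 0.0548) and in a fit of only the compared groups (-0.68, adjusted p = 0.0936). MaAAD differed from MaNonAD by -0.82 ± 0.28 with adjusted p = 0.0886, and the libraries did not overlap, as for Ednrb. Without FeAAD5, which is in neither group but shapes the shared estimate of the spread, the same difference had an adjusted p of 0.0334. Without MaAAD7, the lowest MaAAD library, it was -0.71 with adjusted p = 0.249 (edgeR).

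In AAD, where Adra1d was lower and Ednrb higher, the smooth muscle markers were lower and the macrophage markers higher. In AAD against Con, 10 of 10 contractile smooth muscle markers were lower in each sex, with a median log2 fold change of -1.06 in males and -1.01 in females. Their summed level ran from 31987 to 70139 CPM in MaCon, from 13674 to 33135 CPM in MaAAD, from 35008 to 60432 CPM in FeCon and from 15615 to 36049 CPM in FeAAD, and no marker was at 0 in any group. In FeNonAD against FeCon 2 of 10 were lower, beside a sum of 29625 to 50459 CPM. All 10 macrophage markers were higher in AAD in each sex, with medians of 2.07 in males and 1.68 in females. Their sum ran from 261 to 669 CPM in MaCon, from 970 to 4227 CPM in MaAAD, from 311 to 734 CPM in FeCon and from 745 to 6240 CPM in FeAAD. The endothelial markers, 2 of 10 higher in MaAAD, and 2 higher and 2 lower in FeAAD, had summed levels of 650 to 1008 CPM in MaCon, 605 to 1151 in MaAAD, 659 to 1275 in FeCon and 382 to 1144 in FeAAD. MaAAD7 and FeAAD5 had both the highest macrophage sums and the highest Ednrb of their groups. The same libraries were also highest for neutrophil markers (241 CPM in MaAAD7 and 888 CPM in FeAAD5, against group medians of 22.3 and 11.7) and for proliferation markers (389 and 660 CPM). MaAAD7 was highest of MaAAD for heart muscle (513 CPM, group median 76) and skeletal muscle markers (39.6 CPM, group median 5.71). FeAAD5 had the lowest heart muscle sum of FeAAD (43.9 CPM). In AAD against Con 5 of 6 tested neutrophil markers were higher in males and 6 of 6 in females, with median log2 fold changes of 3.83 and 4.76. All 8 proliferation markers were higher in each sex, with medians of 2.91 and 4.04. Fibroblast marker sums ran from 14256 to 19069 CPM in MaCon and from 21192 to 37775 CPM in MaAAD without overlap, and from 13707 to 20193 CPM in FeCon and from 21017 to 39557 CPM in FeAAD, also without overlap. The fibroblast markers went both ways, however, with 5 of 10 higher and 1 lower in MaAAD (median 0.27) and 4 higher and 2 lower in FeAAD (median 0.03). In FeAAD against FeCon 5 of 6 mesothelial (median -0.87), 6 of 10 heart muscle (median -1.25) and 3 of 6 skeletal muscle markers (median -1.09) were lower and 0 higher. In MaAAD against MaCon 0, 1 and 1 of these were lower and 0 higher, with medians of 0.26, 0.19 and -0.70. The sex difference in the AAD response (edgeR) was called for 0 markers of these lists, with medians of 1.11, 1.32 and 0.54. FeAAD5 had both the lowest smooth muscle sum and the lowest Adra1d of FeAAD, and among males MaAAD1 had the lowest smooth muscle sum whereas MaAAD7 had the lowest Adra1d. The part of cell composition in the Ednrb and Adra1d results was not tested.

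**Figure D3:**
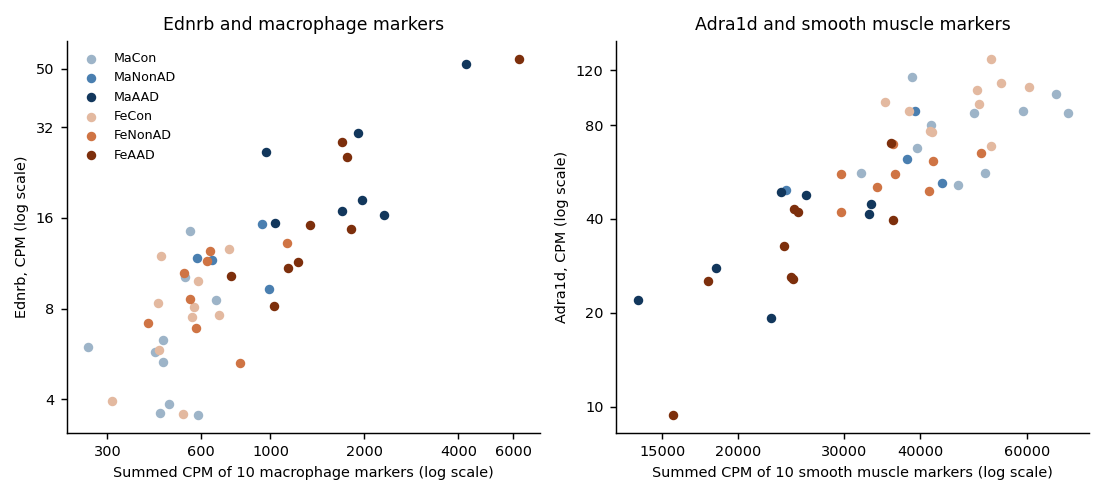
Left, Ednrb in CPM (y axis) against the summed CPM of 10 macrophage markers (x axis), and right, Adra1d in CPM against the summed CPM of 10 smooth muscle markers, with 1 point per library coloured by group and log scales on all axes. MaAAD7 (51.6 CPM) and FeAAD5 (54 CPM) are at the upper right on the left, and FeAAD5 (9.41 CPM) is lowest on the right.

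The genes with the most similar patterns across the 48 libraries included a smooth muscle marker for Adra1d and a macrophage marker for Ednrb. Likeness was measured as the root mean square difference of log2(CPM + 1) values standardized over the libraries, where 0 is the same pattern, over 13710 genes averaging at least 10 counts. Nearest to Adra1d was Lmod1, a smooth muscle actin-nucleating protein that is also on the smooth muscle list (0.32, against a median of 1.4 over all genes), followed by Tacc2 (0.37) and Inka2 (0.39). Nearest to Ednrb were Cd38, an enzyme that consumes NAD (0.40, median 1.43), the macrophage mannose receptor Mrc1 (0.46), which is on the macrophage list, and Eps8 (0.46), an actin regulator. Ace was nearest to Timp2, an inhibitor of metalloproteinases (0.48), Prelp, a small proteoglycan of the matrix (0.48), and Col4a4, a basement membrane collagen chain (0.52). Ednra was nearest to Pqlc3 (0.61), Slc44a1 (0.62) and the fibroblast protease Fap (0.64). The nearest genes of Npr3 were Chrdl1, a BMP antagonist (0.69), Lmo7 (0.72) and the laminin chain Lama3 (0.77), and those of Ptgir were Cmklr1, the chemerin receptor (0.70), Lima1 (0.70) and S1pr2, a sphingosine-1-phosphate receptor (0.72). For Agtr1a they were Spry1 (0.79), Angpt1 (0.83) and Cspg5 (0.83), and for Edn1 Amotl2 (0.83), the growth factor Bmp4 (0.91) and Eya2 (0.91). The nearest genes of the rarely counted Avpr1a were Ormdl2 (0.81), Zc3h15 (0.82) and Cdk20 (0.83). All libraries of all groups enter these values, so they hold group differences as well as differences between mice.

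Ptgir, the receptor through which prostacyclin relaxes smooth muscle and restrains platelets, was called between AAD and Con in males and not in females. The gene lies on chromosome 7 (chr7:16906490-16910905, plus strand of GRCm38). The 250 bases before its RefSeq start site are shown because it was also called between the control groups of the sexes.

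Ptgir, chr7:16906240-16906489, plus strand: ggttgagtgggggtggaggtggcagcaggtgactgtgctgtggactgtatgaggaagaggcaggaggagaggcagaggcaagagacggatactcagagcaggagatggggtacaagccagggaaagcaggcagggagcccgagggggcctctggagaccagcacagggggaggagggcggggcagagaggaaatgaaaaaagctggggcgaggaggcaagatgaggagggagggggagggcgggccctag

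In MaCon Ptgir ran from 2.79 to 6.35 CPM (median 4.99), in MaAAD from 7.11 to 14.1 CPM (median 9.95), and the 4 MaNonAD libraries were at 10, 7.26, 8.28 and 7.55 CPM. All BAPN-treated males thus lay above all control males, with or without a lesion. In FeCon it ran from 2.08 to 11.7 CPM (median 8.02), in FeNonAD from 6 to 13.1 CPM (median 8.13) and in FeAAD from 3.32 to 15.2 CPM (median 8.29), and the female groups overlapped widely. Ptgir rose by 1.11 ± 0.23 on the log2 scale, or 2.15-fold, in MaAAD against MaCon (adjusted p = 0.000137). In FeAAD against FeCon the difference was 0.21 ± 0.21 (adjusted p = 0.444), with a 95% interval from -0.21 to 0.63, and without FeAAD9 it was 0.32 (adjusted p = 0.211). The MaNonAD difference from MaCon was 0.81 ± 0.27 with adjusted p = 0.165, and with only these 2 groups in the fit it was 0.82 with adjusted p = 0.0476. The difference between the sexes in the AAD response, 0.89 ± 0.31, did not pass (unadjusted p = 0.0064, adjusted p = 0.13, edgeR). Ptgir was lower in MaCon than in FeCon, by -0.68 ± 0.21 (adjusted p = 0.0253), and this call was lost without FeCon10, the highest FeCon library (-0.59, adjusted p = 0.067). In the same comparison 4 of 7 T cell markers were higher in MaCon (median 1.61), with sums of 1.74 to 183 CPM in MaCon, the highest in MaCon2, and of 1.78 to 21.3 CPM in FeCon, and their part was not tested.

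Npr3, the clearance receptor of natriuretic peptides, spread widely among the AAD libraries. The gene lies on chromosome 15 (chr15:11839896-11907287, minus strand of GRCm38), beside a non-coding gene on the opposite strand that overlaps it. It ran from 14.2 to 30.9 CPM (median 19.4) in FeCon, from 12.2 to 21.2 CPM (median 17) in FeNonAD and from 8.28 to 54.3 CPM (median 25.3) in FeAAD. FeAAD1, FeAAD4, FeAAD6 and FeAAD7 stood between 42.4 and 54.3 CPM, above every female without a lesion, while FeAAD5 (10.5 CPM) and FeAAD9 (8.28 CPM) lay below them all. The coefficient of variation was 58.4% in FeAAD and 57.5% in MaAAD, against 23.1% in FeCon, 22.5% in MaCon, 18.9% in FeNonAD and 40.3% in MaNonAD, and this spread was not tested. Npr3 was higher in FeAAD than in FeCon by 0.60 ± 0.25 (adjusted p = 0.0492) and than in FeNonAD by 0.83 ± 0.27 (adjusted p = 0.0269). The first call stood just inside the threshold and was lost in several alternatives, among them the replicate number as a block (0.41, adjusted p = 0.148), without FeCon10 (0.60, adjusted p = 0.0621), without MaNonAD4 (0.60, adjusted p = 0.0521) and without MaAAD7 (0.60, adjusted p = 0.0516), the last pair being in neither group but in the shared estimate of the spread. Without FeAAD5 it was 0.71 (adjusted p = 0.017) and without FeAAD9 0.72 (adjusted p = 0.0116). In a fit of only FeAAD and FeNonAD the second had an adjusted p of 0.108. In males the level ran from 15 to 30.5 CPM (median 22.6) in MaCon and from 14.9 to 55.9 CPM (median 19.8) in MaAAD, a difference of 0.10 ± 0.27 (adjusted p = 0.809). The MaNonAD libraries were at 33.1, 16.9, 14.3 and 19 CPM. The sex difference in the AAD response, -0.50 ± 0.37, had an adjusted p of 0.548.

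None of the 3 renin-angiotensin members was called in any of the 11 comparisons by edgeR or DESeq2, and 1 value, that of Agt in FeNonAD against FeCon, had an unadjusted p under 0.05. They are Agt (chr8:124556534-124569706, minus strand of GRCm38), Ace (chr11:105967945-105989964, plus strand) and Agtr1a (chr13:30336441-30382867, plus strand), and an antisense gene overlaps Ace and a sense intronic gene Agtr1a. Ace ran from 633 to 1119 CPM (median 871) in MaCon, from 528 to 1281 CPM (median 970) in MaAAD, from 705 to 1375 CPM (median 1055) in FeCon, from 672 to 1051 CPM (median 915) in FeNonAD and from 147 to 1298 CPM (median 936) in FeAAD. The 4 MaNonAD libraries were at 1313, 858, 1005 and 1022 CPM. The groups overlapped, and only FeAAD5 (147 CPM) and FeAAD9 (317 CPM), the libraries with the lowest smooth muscle and endothelial sums of FeAAD, lay far below the rest. Ace differed by 0.15 ± 0.22 in MaAAD (adjusted p = 0.626, 95% interval -0.28 to 0.59) and by -0.38 ± 0.21 in FeAAD (adjusted p = 0.144, 95% interval -0.79 to 0.03) against Con. Without MaAAD7 the male value was 0.26 (adjusted p = 0.424). Without FeAAD5 the female value was -0.24 (adjusted p = 0.275) and without FeAAD9 -0.27 (adjusted p = 0.293).

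Agtr1a, the main receptor of angiotensin II in vessels, was at a low level in all groups. Its median was 4.13 CPM in MaCon (range 2.18 to 5.64), 3.35 in MaAAD (1.69 to 7.29), 3.15 in FeCon (1.99 to 5.14), 3.89 in FeNonAD (2.53 to 6.31) and 3.59 in FeAAD (2.48 to 6.83), and the MaNonAD libraries were at 3.89, 3.63, 4.53 and 4.07 CPM. All groups overlapped. The difference from Con was -0.15 ± 0.23 in MaAAD (adjusted p = 0.645, 95% interval -0.60 to 0.30) and 0.26 ± 0.21 in FeAAD (adjusted p = 0.342, 95% interval -0.16 to 0.68). The near copy Agtr1b, which could share reads with it, averaged 4.29 counts per library against 60.4 for Agtr1a.

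Agt, the angiotensin precursor made mainly by liver, was near the limit of counting. Its median was 0.365 CPM in MaCon (range 0.0668 to 0.769), 0.31 in MaAAD (0.123 to 1.87), 0.514 in FeCon (0.0692 to 2.43), 0.251 in FeNonAD (0.0612 to 0.366) and 0.186 in FeAAD (0.0592 to 0.779). The MaNonAD libraries were at 0.479, 0.382, 0.46 and 0.134 CPM. The groups overlapped, and the highest values were single libraries: FeCon10, which also had the highest heart muscle marker sum of all (771 CPM), and MaAAD1, which had the highest fat marker sum (9897 CPM). The part of these cell types in the Agt values was not tested. The largest Agt difference, -1.46 ± 0.54 in FeNonAD against FeCon, had an adjusted p of 0.0607, and without FeCon10 it was -0.92 with adjusted p = 0.245.

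Avpr1a, the vasopressin receptor of arterial muscle, was also scarce. The gene lies on chromosome 10 (chr10:122448499-122453452, plus strand of GRCm38), where an antisense gene overlaps it. It ran from 0.266 to 2.18 CPM (median 1.24) in MaCon, from 0.233 to 2.45 CPM (median 0.599) in MaAAD, from 0.331 to 0.984 CPM (median 0.666) in FeCon, from 0.262 to 2.8 CPM (median 0.588) in FeNonAD and from 0.182 to 4.73 CPM (median 0.794) in FeAAD. The 4 MaNonAD libraries were at 0.359, 0.637, 1.25 and 1 CPM. The groups overlapped, and FeAAD5 held the highest value. Avpr1a differed by 1.06 ± 0.47 in FeAAD against FeCon (adjusted p = 0.0588), by 0.56 without FeAAD5 (adjusted p = 0.341) and by 1.06 without FeNonAD8 (adjusted p = 0.041). FeAAD differed from FeNonAD by 0.80 ± 0.49 (adjusted p = 0.253), by 1.43 without FeNonAD8 (adjusted p = 0.0327) and by 0.30 without FeAAD5 (adjusted p = 0.757). MaCon differed from FeCon by 0.90 ± 0.46 (adjusted p = 0.182), and by 0.91 with adjusted p = 0.0377 when only these groups were fitted. The calls for this gene thus depended on which libraries entered the fit.

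**Figure D4:**
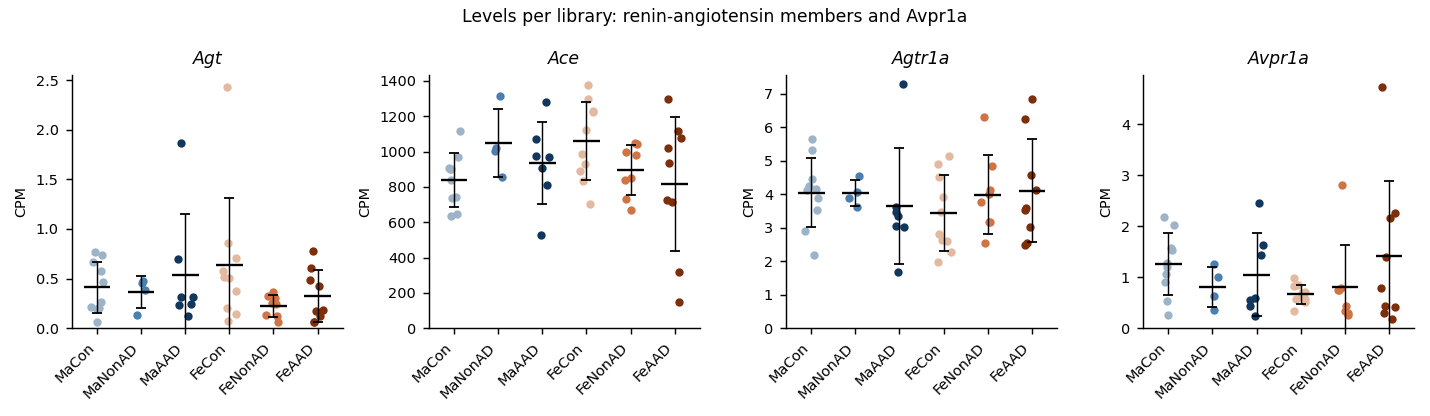
CPM (y axis) of Agt, Ace, Agtr1a and Avpr1a in each of the 48 libraries (points) by group, with the mean (line) and SD (bars, drawn only above 0). All groups overlap, and single libraries stand out, among them FeCon10 for Agt (2.43 CPM), FeAAD5 for Ace (147 CPM) and FeAAD5 for Avpr1a (4.73 CPM).

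Between the sexes, Ptgir was lower in MaCon than in FeCon and was the only member called, where 14.3% of all genes were. No member was called between MaNonAD and FeNonAD (0.0624% of all genes) or between MaAAD and FeAAD (0.0901% of all genes), with no member at an unadjusted p under 0.05 and 0 calls by DESeq2 in either. The sex difference in the NonAD response was called for no member (lowest adjusted p = 0.511) and for 0.416% of all genes. That in the AAD response was called for no member (lowest adjusted p = 0.13) and for 1.34% of all genes. Of the 10, Ptgir alone had an unadjusted p under 0.05 in the last of these tests and none had in the other, and DESeq2 called 0 in both.

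The other genes of the same pathways were described from lists of 106 genes, of which 105 were in the table and 89 were tested. In MaAAD against MaCon 20 of the 89 were higher and 28 lower, and in FeAAD against FeCon 18 were higher and 24 lower, with median log2 fold changes of -0.14 and -0.08. Over all tested genes 18.9% were higher and 16.1% lower in males, and 23.8% and 20.6% in females. In FeNonAD against FeCon 4 were higher and 5 lower, where 14.5% of all genes were called. The counts of the single lists are to be read against these shares. The sex difference in the AAD response was called in edgeR for 1 of the 89, beside 1.34% of all genes. That in the NonAD response was called for 1, beside 0.416% of all genes, and both calls were Ece1. For the other genes below, a call in 1 sex alone is thus not a called difference between the sexes. The lists were described by counts only, and the comparisons share their Con libraries. Genes called in small counts are named below after their values were seen where the naming rule left them out (no DEG, too few counts, or larger changes in the same list), and this holds for Anpep, Agtrap, Atp6ap2, Edn3, Ece1, Npr2, Adra1b, Ptger1, Tbxa2r, Ptgis, Htr1b, P2rx1 and Pde1a.

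Among 8 tested genes of the renin-angiotensin list, 3 were higher and none lower in MaAAD, and 1 was higher and 1 lower in FeAAD, where 18.9% and 16.1% of all genes were higher and lower in males and 23.8% and 20.6% in females. Anpep, an aminopeptidase that trims angiotensin peptides, rose by 0.73 ± 0.16 in MaAAD (adjusted p = 0.000216) and by 0.78 ± 0.15 in FeAAD (adjusted p = 2.98e-05). The other risers in males were Agtrap (0.26 ± 0.09) and Atp6ap2 (0.23 ± 0.09), which bind the angiotensin receptor and prorenin. The renin gene Ren1, whose protease releases angiotensin I, fell by 1.75 ± 0.38 on the log2 scale in FeAAD (adjusted p = 0.000183), from 17 ± 9.42 CPM in FeCon to 5.06 ± 2.81 CPM. In MaAAD the Ren1 difference was -0.80 ± 0.40 (adjusted p = 0.115). Of the 3 tested genes of the endothelin list, which holds other ligands and the converting enzymes, 1 was lower in MaAAD and 2 were lower in FeAAD. The ligand Edn3 fell by 2.00 ± 0.37 in MaAAD (adjusted p = 2.61e-05) and by 1.70 ± 0.32 in FeAAD (adjusted p = 2.27e-05), at a mean of only 7.83 counts per library. Ece1, which cuts the endothelin precursor, fell by 0.50 ± 0.12 in FeAAD (adjusted p = 0.000464) and by 0.69 ± 0.12 in FeNonAD against FeCon (adjusted p = 0.00014). In males its difference from Con was 0.29 ± 0.12 in MaAAD (adjusted p = 0.0667) and 0.14 ± 0.15 in MaNonAD (adjusted p = 0.777). FeCon held more Ece1 than MaCon, 261 ± 65.8 against 179 ± 21.1 CPM (MaCon against FeCon -0.55 ± 0.11, adjusted p = 0.00099). The male minus female difference of the response was 0.79 ± 0.17 for AAD (adjusted p = 0.0112) and 0.84 ± 0.19 for NonAD (adjusted p = 0.027), and both share the same Con libraries. Under BAPN, Ece1 was not called between MaNonAD and FeNonAD (0.29 ± 0.15, adjusted p = 0.72) or between MaAAD and FeAAD (0.24 ± 0.13) in edgeR. Of the 4 tested genes of the natriuretic peptide list, 1 was lower in MaAAD and 2 in FeAAD. Npr1, the guanylyl cyclase receptor of atrial natriuretic peptide, fell from 437 ± 49.3 CPM in MaCon to 213 ± 46.8 CPM in MaAAD (-1.04 ± 0.15, adjusted p = 4.51e-07) and by 0.86 ± 0.14 in FeAAD (adjusted p = 1.55e-06). Npr2, the receptor of C-type natriuretic peptide, fell by 0.42 ± 0.13 in FeAAD (adjusted p = 0.00656).

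Of 7 tested adrenoceptors on the adrenergic list, none was higher in AAD, 3 were lower in MaAAD and 2 in FeAAD, where 16.1% and 20.6% of all genes were lower. Adra1b, like Adra1d an α1-adrenoceptor, fell by 0.67 ± 0.20 in MaAAD (adjusted p = 0.00627) and by 0.48 ± 0.18 in FeAAD (adjusted p = 0.0284). Adra2c fell by 1.38 ± 0.43 in MaAAD (adjusted p = 0.00921) and by 1.03 ± 0.40 in FeAAD (adjusted p = 0.0333). Adra1a, another α1-adrenoceptor, fell by 1.20 ± 0.47 in MaAAD (adjusted p = 0.0435), and in FeAAD its difference was -0.01 ± 0.43 (adjusted p = 0.987). Of 7 tested prostanoid genes, 2 were higher and 2 lower in MaAAD, and 3 were higher and 3 lower in FeAAD, where 35% and 44.4% of all genes were called. The prostaglandin E receptors Ptger2 and Ptger4, which raise cyclic AMP like Ptgir, rose in both sexes. Ptger4 rose from 4.06 ± 0.666 CPM in MaCon to 12 ± 1.68 CPM in MaAAD (1.56 ± 0.17, adjusted p = 1.86e-09) and by 0.78 ± 0.16 in FeAAD (adjusted p = 6.15e-05). Ptger2 rose by 1.31 ± 0.41 in MaAAD (adjusted p = 0.0108) and by 1.49 ± 0.40 in FeAAD (adjusted p = 0.00198). Ptgis, which makes prostacyclin, fell by 0.57 ± 0.17 in MaAAD (adjusted p = 0.00591) and by 0.81 ± 0.15 in FeAAD (adjusted p = 3.22e-05). Tbxa2r, the thromboxane receptor, fell by 0.93 ± 0.17 in MaAAD (adjusted p = 2.97e-05) and by 0.55 ± 0.16 in FeAAD (adjusted p = 0.00445), and Ptger1 rose by 0.42 ± 0.17 in FeAAD (adjusted p = 0.0394). Ptgfr, the contractile prostaglandin F receptor, fell by 1.27 ± 0.28 in FeAAD (adjusted p = 0.000239), and its difference in MaAAD was -0.49 ± 0.30 (adjusted p = 0.207). Of the vasopressin and oxytocin list only the oxytocin receptor gene Oxtr was tested, and it was not called in either AAD comparison.

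The list of other vasoactive receptors and ligands had 28 tested genes, with 11 higher and 5 lower in MaAAD and 10 higher and 2 lower in FeAAD. Of all genes 35% and 44.4% were called in these comparisons. Apln, the apelin gene, rose from 1.18 ± 0.61 CPM in MaCon to 6.41 ± 4.06 CPM in MaAAD (2.43 ± 0.43, adjusted p = 1.69e-05) and by 2.83 ± 0.43 in FeAAD (adjusted p = 8.38e-07). The adenosine receptor gene Adora2b rose by 2.06 ± 0.38 in MaAAD (adjusted p = 2.61e-05) and by 2.06 ± 0.36 in FeAAD (adjusted p = 1.07e-05). Bdkrb1, an inducible bradykinin receptor, rose by 3.24 ± 0.54 in MaAAD (adjusted p = 5.56e-06), and its difference in FeAAD was 1.00 ± 0.46 (adjusted p = 0.0751). Npy1r, a neuropeptide Y receptor of arterial muscle, fell by 1.18 ± 0.23 in MaAAD (adjusted p = 7.49e-05) and by 0.93 ± 0.21 in FeAAD (adjusted p = 0.000379). Adm, the gene of the vasodilator adrenomedullin, fell by 0.63 ± 0.24 in MaAAD (adjusted p = 0.0358) and by 1.02 ± 0.22 in FeAAD (adjusted p = 0.000236). Ramp1, a subunit of the receptor of calcitonin gene-related peptide, fell by 1.09 ± 0.17 in MaAAD (adjusted p = 2.75e-06), and its difference in FeAAD was -0.36 ± 0.16 (adjusted p = 0.0606). Htr1b, a serotonin receptor, and P2rx1, an ATP-gated channel of arterial muscle, fell in MaAAD by 0.78 ± 0.24 (adjusted p = 0.00823) and 0.78 ± 0.21 (adjusted p = 0.00282). In FeAAD their differences were -0.22 ± 0.22 (adjusted p = 0.422) and -0.38 ± 0.19 (adjusted p = 0.111).

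Of 31 tested genes of G protein coupling and cyclic nucleotide signalling, 4 were higher and 16 lower in MaAAD, and 4 were higher and 12 lower in FeAAD. Of all genes 16.1% were lower in MaAAD and 20.6% in FeAAD. Gucy1b1, a subunit of the nitric oxide receptor guanylyl cyclase, fell from 259 ± 34 CPM in MaCon to 127 ± 51.6 CPM in MaAAD (-1.03 ± 0.19, adjusted p = 2.43e-05) and by 0.65 ± 0.17 in FeAAD (adjusted p = 0.0017). Rgs4, a brake on Gq signalling, fell by 1.02 ± 0.25 in MaAAD (adjusted p = 0.000966), and its difference in FeAAD was -0.29 ± 0.22 (adjusted p = 0.305). Rgs16 rose by 3.51 ± 0.56 in MaAAD (adjusted p = 2.87e-06) and by 2.97 ± 0.51 in FeAAD (adjusted p = 7.01e-06). Plcb2, a phospholipase C of blood cells, rose by 2.19 ± 0.42 in MaAAD (adjusted p = 5.43e-05) and by 2.88 ± 0.42 in FeAAD (adjusted p = 4.24e-07). Arrb2, a β-arrestin that uncouples receptors, rose by 1.20 ± 0.24 in MaAAD (adjusted p = 0.00012) and by 1.47 ± 0.23 in FeAAD (adjusted p = 1.68e-06). Pde1a, a phosphodiesterase, rose by 1.03 ± 0.17 in MaAAD (adjusted p = 7.08e-06) and by 0.65 ± 0.16 in FeAAD (adjusted p = 0.00109). The macrophage markers rose and the smooth muscle markers fell in the same libraries, and their part in the pathway counts was not tested.

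**Figure D5:**
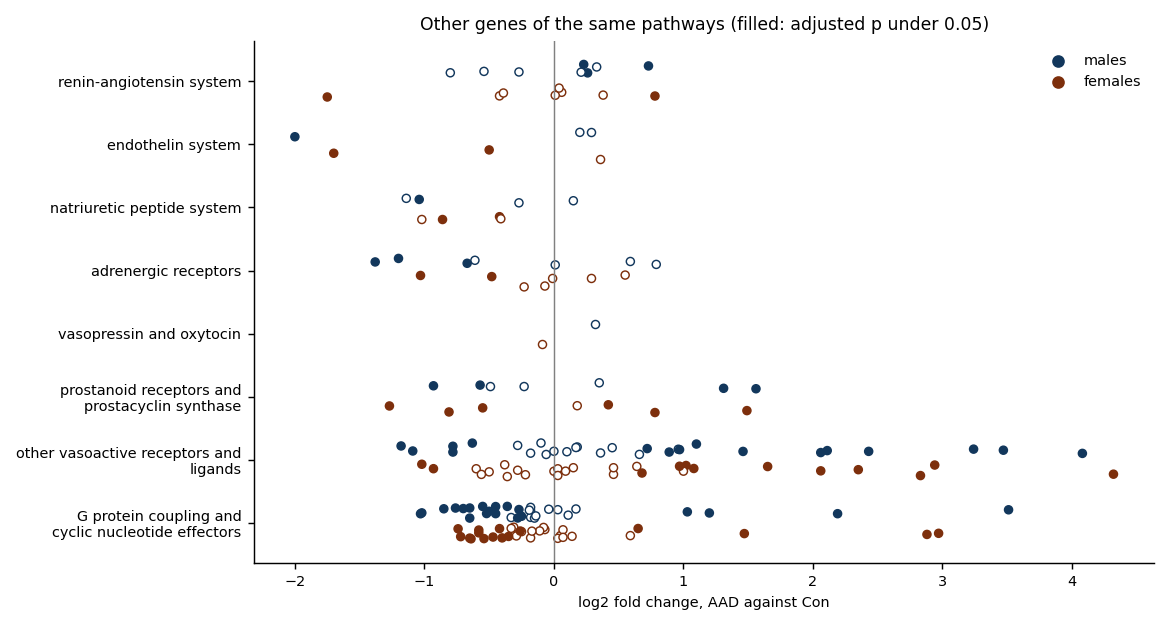
Log2 fold changes of AAD against Con (x axis) for the 89 tested genes of the other pathway members by list (rows), in males (blue) and females (brown), with filled points at an adjusted p under 0.05 and vertical scatter only to separate points. Of the genes of G protein coupling and cyclic nucleotide signalling, 16 are filled to the left of 0 in males and 12 in females.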

How the data were processed

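RNA was measured in 48 thoracic aorta libraries. The authors made strand-specific mRNA libraries, and the deposited table holds expected counts per gene; per the labels the processing used Bowtie2, RSEM 1.3.1 and GRCm39. Of the values 4.99% were not whole and were rounded, none of them in the 10 genes. Groups came from the sample titles. The edgeR 4.0.16 quasi-likelihood test (R 4.3.3, robust, TMM scaling, TMM factors 0.874 to 1.08, default filter on low counts) was fitted with 1 mean per group over all libraries, and p-values were adjusted by Benjamini-Hochberg over 14431 genes. Standard errors were taken from the F statistic and are approximate. DESeq2 1.42.0 and the settings under the closing heading were alternatives. The scripts were tested on simulated data. The 10 genes and all lists were chosen with earlier results of these data known. Other pathway genes were named where they were DEGs in an AAD comparison averaging at least 10 counts, at most 3 rises and 3 falls per list. Sequences came from RefSeq (GRCm38.p6). The genes nearest to Agt in pattern are not reported here.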

Additional observations from a re-analysis of the deposited data

Results flagged for a closer look

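In 2 of 60 groups of libraries, 1 library lay farther from the others than Dixon's test allows, where chance gives about 3. In FeCon, Agt was at 2.43 CPM in FeCon10, with the next library at 0.854 CPM. In FeNonAD, Avpr1a was at 2.8 CPM in FeNonAD8, with the next at 0.796 CPM. Among the other pathway genes, the response of Ece1 differed between males and females in the interaction test of edgeR, by 0.84 (adjusted p = 0.027) for NonAD and by 0.79 (adjusted p = 0.0112) for AAD on the log2 scale. Between the sexes Ece1 was called in MaCon against FeCon (-0.55, adjusted p = 0.00099, edgeR). It was not called in MaNonAD against FeNonAD (0.29, adjusted p = 0.72) or in MaAAD against FeAAD (0.24).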

How the results depend on the processing

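Of 1641 values of the 10 genes recomputed under the alternatives, 1619 kept their direction and their side of the threshold, 15 lost a call, 7 gained one and none reversed. In FeNonAD against FeCon the number of the 10 genes called was 2, and 1 without a filter on low counts. With the replicate number as a block it was also 1 there, where Edn1 had an adjusted p of 0.0636 (edgeR), and 3 in place of 4 in FeAAD against FeCon, where Npr3 was at 0.41 (adjusted p = 0.148). In no comparison did every pair of libraries with the same replicate number correlate above 0.1. Mean correlations ran from -0.0661 (MaAAD against MaCon) to 0.16 (MaAAD against FeAAD), and single pairs reached 0.472. These values cannot tell whether part of the libraries were paired. The block changed no other call of these genes. With only the compared groups fitted, the number was 1 in MaNonAD against MaCon, 0 in FeAAD against FeNonAD, with 0 DEGs, and 2 in MaCon against FeCon. Each of 9 libraries was left out in turn (MaNonAD1 to MaNonAD4, FeCon10, FeNonAD8, MaAAD7, FeAAD5 and FeAAD9) and no other. Over these fits the number ran from 1 to 2 in FeNonAD against FeCon, from 0 to 1 in MaAAD against MaNonAD and in MaCon against FeCon, from 1 to 4 in FeAAD against FeNonAD and from 3 to 5 in FeAAD against FeCon. The DEGs ran from 0 to 2 in FeAAD against FeNonAD and from 1 to 3 in FeAAD against FeCon, with 1 without FeAAD5 and 3 without FeNonAD8. The Ednrb share differed between FeAAD and FeCon by 7.31 (without FeAAD5) to 12.2 percentage points over these fits, and passed without FeCon10 (exact permutation, adjusted p = 0.0447). The cause of these shifts was not tested. The call of Npr3 in FeAAD against FeCon was lost in 6 alternatives. Over all genes, 59 were called in MaAAD against MaNonAD and 0 to 889 under the alternatives. In MaNonAD against MaCon 90 were called, 165 by DESeq2, 274 with only these groups fitted and 16 to 137 with 1 library left out. FeAAD against FeNonAD gave 2625 genes, 1257 with only these groups and 1492 without FeAAD5. The sex difference in the NonAD response gave 60 genes, 183 by DESeq2 and 17 to 114 with 1 library left out. That in the AAD response gave 194 genes, 417 by DESeq2, 95 with only the compared groups, 108 without FeCon10 and 313 without FeAAD5. MaAAD against FeAAD gave 13 genes and 8 under the block. Settings that left out MaAAD7, FeAAD5 or FeAAD9 were chosen after seeing the data. Depth limits Agt and Avpr1a, which had as few as 1 and 3 counts in a library. The labels do not say which mice shared a cage.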
